A study of Mus musculus with 24 samples.

Results

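The baseline transcriptome of Irg1-/- bone marrow-derived macrophages (BMDMs) was compared with that of WT BMDMs before any LPS was added. The comparison took every library whose treatment is Unstim., which gave 3 Irg1-/- and 3 WT cultures, 6 of the 24 libraries of the series. All 6 came from library pool 4, so the genotypes were not split by pool, although that pool also held 3 WT libraries from LPS-treated cells. Marrow was taken from Irg1-/- mice on C57BL/6N or from C57BL/6N mice bought from Charles River as WT, at 8 to 20 weeks of age, and grown for 7 days in M-CSF at 20 ng/mL. Nothing in the sources says that the WT mice were littermates, and the labels give no sex for the donors. The study's methods state a wider age range for marrow donors and describe the mice for in vitro work as matched for age and sex, with both sexes used. The remaining 18 libraries were 3 cultures of each genotype given LPS (100 ng/mL) for 3 h (LPS 3h), for 24 h (LPS 24h), or for 24 h followed by a second 3 h dose after a rest (LPS 24h->LPS 3h). Transcripts were counted at their 3' ends, and values are CPM, counts scaled to a common library size by the TMM method.

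Irg1, listed as Acod1, encodes the mitochondrial enzyme that makes itaconate from the TCA cycle intermediate cis-aconitate. Resting macrophages express little of it, and LPS induces it strongly. Itaconate inhibits succinate dehydrogenase, while cell-permeable derivatives such as octyl-itaconate modify KEAP1 and induce NRF2 target genes. The comparison asked which genes differed between the lines before that induction.

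Acod1 itself did not separate the unstimulated genotypes. The 3 WT cultures had 9.41, 5.82 and 10.0 CPM, and the 3 Irg1-/- cultures had 7.79, 11.9 and 9.64 CPM. The ranges overlapped, and the log2 fold change of Irg1-/- over WT was 0.20 ± 0.47 (SE, unadjusted p = 0.674 by edgeR's quasi-likelihood test). After LPS the gene did check the labels, at a mean of 22181 CPM in WT and 12.0 CPM in Irg1-/- BMDMs in LPS 3h, 4536 against 8.75 CPM in LPS 24h, and 12630 against 14 CPM in LPS 24h->LPS 3h. The level in unstimulated WT cells was therefore close to the level that the knockout kept in every treatment, and the targeted gene could not check the genotype of the 6 unstimulated libraries. Their genotypes rest on the labels alone.

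Counts on genes were 11981667, 7830264 and 15642267 in the WT libraries and 4707752, 3927378 and 14766807 in the Irg1-/- libraries, so 2 of the 3 Irg1-/- libraries were the shallowest of the 6. Genes detected ranged from 11803 to 12504 in WT and from 11309 to 12488 in Irg1-/- libraries, and mitochondrial transcripts took 2.47% to 3.50% of counts over the 6. The log2 values of Irg1-/- cultures 1 and 2 correlated least of all pairs across genes (Pearson's r = 0.902), whereas WT pairs ranged from 0.949 to 0.957; genes are not independent replicates. Within either group, the counts of each pair differed beyond counting error alone (a chi-square per degree of freedom of 27.8 or more), a measure that takes PCR reads as independent molecules. The p-values below rest on a spread between cultures of the same group that was estimated over all 24 libraries.

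Few genes passed the test. Of 11878 genes tested, 5 had an adjusted p under 0.05 (0.0421%), with 4 higher in Irg1-/- BMDMs (0.0337%; Ccl12, Tnfsf15, Cldn12 and Pnp2) and 1 lower (0.00842%; Itgb8). At an unadjusted p under 0.05 were 618 genes (5.2%), of which 321 were higher (2.7%) and 297 lower (2.5%). The ranges of the 3 cultures did not overlap for 516 genes with Irg1-/- higher (4.34%) and 605 with Irg1-/- lower (5.09%), and the median log2 fold change of all genes tested was 0.01. The number that passed depended on the fit. DESeq2's Wald test called 32 of the 10952 genes to which it gave an adjusted p (0.292%), 26 of them higher (0.237%) and 6 lower (0.0548%), and the fit without a filter on low counts called 39, while edgeR on the 6 unstimulated libraries alone called 0, with 457 genes at an unadjusted p under 0.05. Leaving out 1 library gave 3 genes without Irg1-/- culture 1, 2 without Irg1-/- culture 2, 0 without Irg1-/- culture 3, WT culture 1 or WT culture 2, and 5 without WT culture 3, of which 2 were among the original 5.

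**Figure D1:**
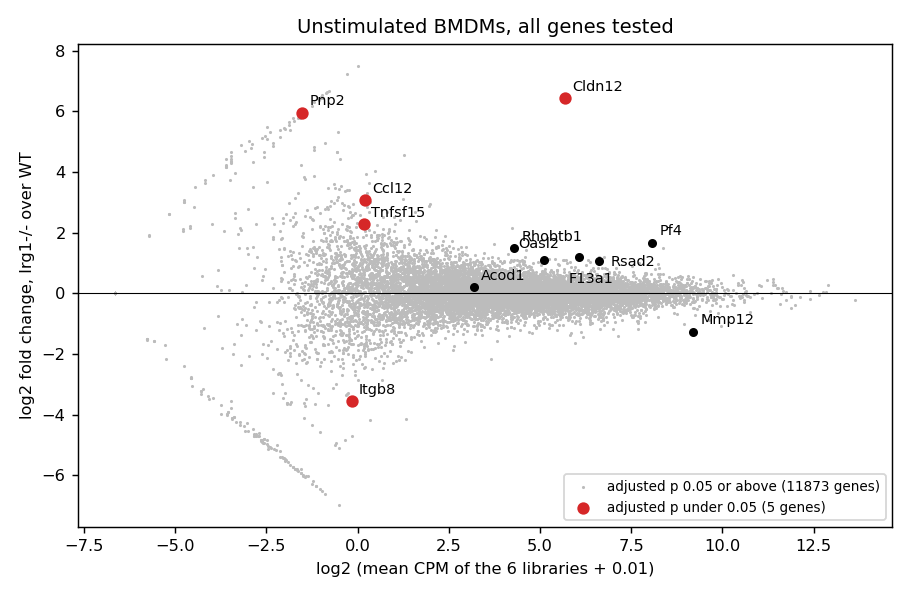
Log2 fold change of Irg1-/- over WT in unstimulated BMDMs (vertical axis) against log2 of the mean CPM of the 6 libraries plus 0.01 (horizontal axis), 1 point per gene. Red points are the 5 genes with an adjusted p under 0.05, black points are named genes that did not pass, and the other genes lie around 0 with a spread that widens at low levels.

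Ccl12, a chemokine that attracts monocytes through CCR2, was the gene with the smallest p. WT cultures had 0.0644, 0.0955 and 0.439 CPM (1, 1 and 9 counts), and Irg1-/- cultures had 1.71, 2.83 and 1.66 CPM (11, 15 and 31 counts). All Irg1-/- cultures lay above all WT cultures, with a log2 fold change of 3.07 ± 0.52 (SE, edgeR adjusted p = 0.0184), although the WT level rested on 11 counts in all. The gene (ENSMUSG00000035352.3) lies at chr11:82101845-82103400 on the plus strand of mm10.

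Tnfsf15, which encodes the TNF family cytokine TL1A, was also higher in the knockout. Its levels were 0.451, 0.286 and 0.390 CPM in WT cultures (7, 3 and 8 counts). Irg1-/- cultures had 1.56, 1.89 and 2.14 CPM (10, 10 and 40 counts), without overlap. The log2 fold change was 2.27 ± 0.41 (SE, edgeR adjusted p = 0.0184). The gene (ENSMUSG00000050395.8) lies at chr4:63727084-63745113 on the minus strand.

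Itgb8, the beta subunit of the integrin that activates latent TGF-beta, was the only gene that passed edgeR's test in the other direction. WT cultures had 2.25, 1.72 and 0.975 CPM (35, 18 and 20 counts), whereas Irg1-/- cultures had 0, 0.189 and 0.161 CPM (0, 1 and 3 counts). The groups did not overlap, and because every Irg1-/- library held at most 3 counts, the difference is given as at least 4.15-fold lower (edgeR adjusted p = 0.0184). The gene (ENSMUSG00000025321.14) lies at chr12:119158022-119238802 on the minus strand.

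These 3 calls were lost in the 6 unstimulated libraries alone, where edgeR's unadjusted p was 0.0211 for Ccl12, 0.061 for Tnfsf15 and 0.0192 for Itgb8, each with an adjusted p of 1.00. They were also lost after thinning to the smallest library (edgeR adjusted p = 0.185 for Ccl12, 0.248 for Tnfsf15 and 0.185 for Itgb8). With 1 library left out, Ccl12 passed without Irg1-/- culture 1 or WT culture 3, Tnfsf15 without Irg1-/- culture 1 and Itgb8 without WT culture 3, and each missed the threshold in the other fits of this kind. DESeq2 on all 24 libraries called all 3. Each gene was far higher in LPS 3h, with means of 112 CPM (WT) and 143 CPM (Irg1-/-) for Ccl12. Those means were 1515 and 1326 CPM for Tnfsf15 and 63.7 and 53.2 CPM for Itgb8. LPS libraries entered the estimate of the spread and the filter on low counts, and 3 WT ones shared pool 4. Their part in these calls was not tested.

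The other two calls rested on fewer cultures. Cldn12, a claudin of cell junctions, had 0.515, 1.43 and 1.61 CPM in WT, and 0.779, 1.70 and 303 CPM in Irg1-/- cultures. Irg1-/- culture 3 alone, with 5665 counts, stood apart from the WT cultures, and the groups overlapped. Without that culture the log2 fold change was 0.05, from 6.42 with it, and DESeq2 gave the gene no adjusted p. Pnp2, a purine nucleoside phosphorylase, had 0 counts in the 3 WT libraries and 10, 0 and 9 counts in the Irg1-/- libraries, so the groups overlapped at 0, and it was at least 3.26-fold higher on the mean (edgeR adjusted p = 0.0365). Pnp2 overlaps its paralog Pnp on the same strand, and reads may have been divided between them.

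**Figure D2:**
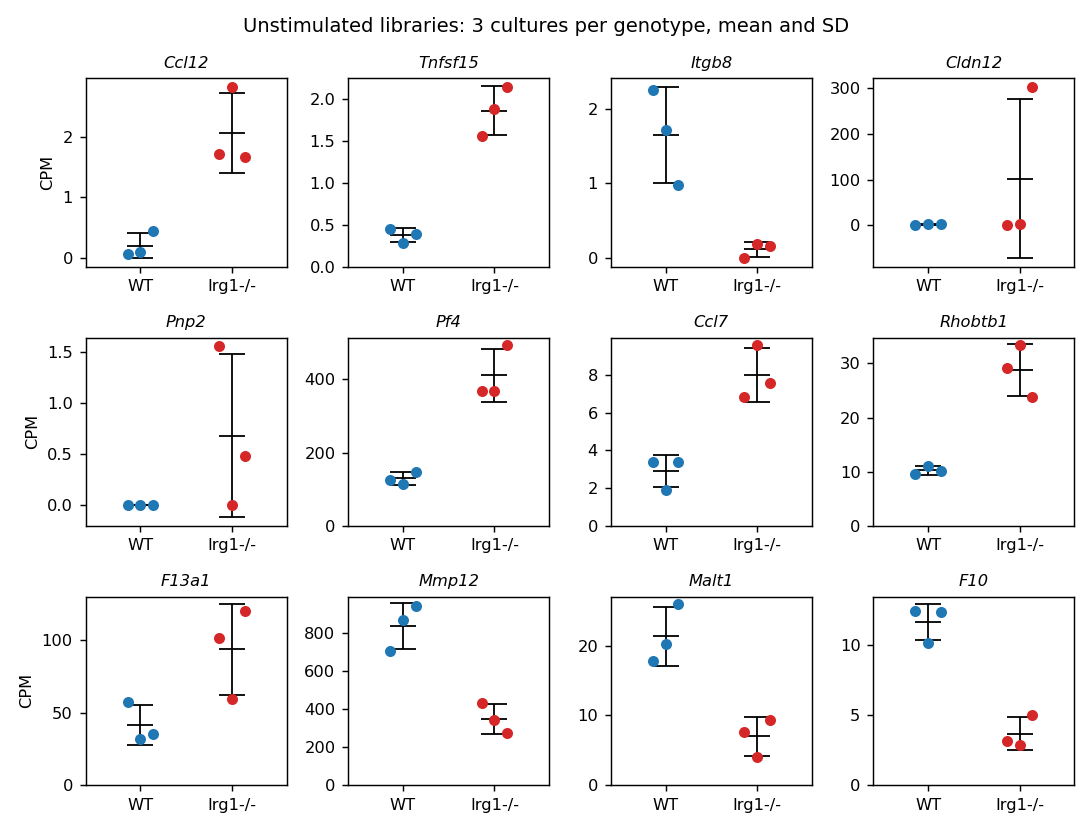
CPM (vertical axes, linear) of 12 genes in the 3 WT (blue) and 3 Irg1-/- (red) unstimulated cultures; bars give the mean and SD. The top row shows Ccl12, Tnfsf15 and Itgb8 with groups apart and Cldn12 with 1 Irg1-/- culture at 303 CPM, and the other rows show Pnp2 and 7 genes that did not pass the test.

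The 10 genes with the smallest p in each direction, among those whose groups did not overlap and whose higher group averaged 10 counts or more, were examined next. Of these 20 genes 3 passed in edgeR, whereas DESeq2 called 15, all 10 of the higher ones and 5 of the lower ones (Itgb8, Pilrb1, Mmp12, Malt1 and Sept8). Over all genes, edgeR called 0.0421% and DESeq2 0.292%, of which 0.237% were higher and 0.0548% lower. The 20 were picked by their p in the same libraries, so the DESeq2 calls are not separate evidence for them. Pf4, the chemokine CXCL4 of platelets and macrophages, had 125, 115 and 148 CPM in WT and 369, 369 and 495 CPM in Irg1-/- cultures (log2 fold change 1.67 ± 0.36 (SE), edgeR adjusted p = 0.0937). Every Irg1-/- culture was well above every WT culture. Rhobtb1, an atypical small GTPase, had 9.53, 11.1 and 10.0 CPM in WT and 29.1, 33.4 and 23.7 CPM in Irg1-/- cultures (log2 fold change 1.49 ± 0.31 (SE), edgeR adjusted p = 0.0818), and it overlaps A930033H14Rik on the opposite strand. Ccl7, a second CCR2 ligand, had 3.41, 1.91 and 3.41 CPM in WT and 6.86, 9.61 and 7.60 CPM in Irg1-/- cultures (log2 fold change 1.43 ± 0.33 (SE), edgeR adjusted p = 0.128). F13a1, the coagulation factor XIII A subunit and a marker of monocytes and of alternatively activated macrophages, had 57.2, 32.0 and 35.1 CPM in WT and 102, 59.2 and 120 CPM in Irg1-/- cultures (log2 fold change 1.18 ± 0.30 (SE), edgeR adjusted p = 0.251). Ptprn, a receptor-type phosphatase of secretory granules, had 0, 0 and 0.341 CPM in WT and 1.56, 3.77 and 1.28 CPM in Irg1-/- cultures. The other 3 genes of this direction were the interferon targets Oasl2, Isg20 and Mx2, given below.

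In the other direction the most abundant gene was Mmp12, the macrophage metalloelastase. WT cultures had 704, 864 and 937 CPM and Irg1-/- cultures had 428, 342 and 271 CPM (log2 fold change −1.27 ± 0.28 (SE), edgeR adjusted p = 0.0937). The lowest WT culture was above the highest Irg1-/- culture, and Mmp12 overlaps Mmp1b on the opposite strand. Malt1, the paracaspase that relays signals to NF-kB, had 17.8, 20.3 and 26 CPM in WT and 7.64, 3.96 and 9.37 CPM in Irg1-/- cultures (log2 fold change −1.58 ± 0.36 (SE), edgeR adjusted p = 0.128). F10, coagulation factor X, had 12.4, 10.1 and 12.3 CPM in WT and 3.12, 2.83 and 4.98 CPM in Irg1-/- cultures (log2 fold change −1.62 ± 0.42 (SE), edgeR adjusted p = 0.277). Both genes were lower in each Irg1-/- culture than in any WT culture. Pilrb1, an activating receptor of the paired immunoglobulin-like type 2 family, had 8, 19 and 4 counts in WT and 0 in every Irg1-/- library, at least 2.11-fold lower (edgeR adjusted p = 0.0888). The focal adhesion gene Lims1 ranged from 126 to 246 CPM in WT and from 59.8 to 92.7 CPM in Irg1-/-, and the septin Sept8 from 81.0 to 134 CPM and from 51.1 to 61.6 CPM. Mmd and 2310061I04Rik had log2 fold changes of −1.12 and −1.89. Noc2l, a nucleolar protein gene, owed its value of −1.63 to WT culture 3, at 207 CPM against 38.5 and 35.0 CPM in the other two, and without that culture it was −0.29.

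Targets of type I interferon had the highest median of the lists with 9 or more genes tested, out of 37 lists examined. These genes, which encode antiviral enzymes, sensors and chemokines, are switched on by a complex with IRF9 that binds the interferon-stimulated response element (ISRE). All 30 listed genes were tested, and 0 passed the threshold in edgeR, while DESeq2 called 3 (Isg20, Mx2 and Oasl2). In 14 of the 30 the 3 Irg1-/- cultures lay above the 3 WT cultures, against 4.34% of all genes tested, and in 0 they lay below (5.09% of all genes). At an unadjusted p under 0.05, 11 were higher and 0 lower, beside 2.7% and 2.5% of all genes. The log2 fold change was above 0 for 28 of the 30, with a median of 0.59 against 0.01 for all genes tested. Summed over the list, WT cultures had 1064, 1068 and 895 CPM and Irg1-/- cultures had 1519, 1451 and 1478 CPM, so the sums did not overlap. The exact permutation p of the sums was 0.1, the smallest that 3 against 3 allows. The members share their regulation and were read in the same 6 cultures, so counts of members are not counts of independent replicates.

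To show the regulatory sequence that members of this list share, the 250 bases before the RefSeq start (GRCm38.p6) are printed for 4 of them, 5′ to 3′ on the strand of the gene, with each match to the ISRE core TTTCNNTTT on either strand in capitals. Isg15, an ubiquitin-like modifier, carried 3 overlapping or adjoining matches, Rsad2, the antiviral enzyme viperin, 2, and Isg20, an RNA exonuclease, and Cxcl10, a chemokine for T cells, 1 each. Isg20 has 3 RefSeq windows, and the other two held no match, nor did the window of Oasl2, the interferon target with the smallest p.
Rsad2, chr12:26456453-26456702, minus strand: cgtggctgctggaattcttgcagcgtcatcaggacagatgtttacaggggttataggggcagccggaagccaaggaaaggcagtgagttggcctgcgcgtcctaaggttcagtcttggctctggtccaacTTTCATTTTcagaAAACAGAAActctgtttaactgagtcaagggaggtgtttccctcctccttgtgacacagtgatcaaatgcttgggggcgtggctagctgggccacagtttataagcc
Isg15, chr4:156200819-156201068, minus strand: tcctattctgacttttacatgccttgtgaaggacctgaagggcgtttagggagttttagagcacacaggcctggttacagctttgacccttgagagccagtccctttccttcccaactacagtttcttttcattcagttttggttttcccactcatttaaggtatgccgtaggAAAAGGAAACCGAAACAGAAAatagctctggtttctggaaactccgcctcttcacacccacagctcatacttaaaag
Isg20, chr7:78913174-78913423, plus strand: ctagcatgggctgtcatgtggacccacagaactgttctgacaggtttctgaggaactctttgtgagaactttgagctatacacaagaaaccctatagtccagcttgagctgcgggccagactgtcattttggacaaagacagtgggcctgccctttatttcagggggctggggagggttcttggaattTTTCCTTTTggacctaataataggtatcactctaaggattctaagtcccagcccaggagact
Cxcl10, chr5:92348890-92349139, minus strand: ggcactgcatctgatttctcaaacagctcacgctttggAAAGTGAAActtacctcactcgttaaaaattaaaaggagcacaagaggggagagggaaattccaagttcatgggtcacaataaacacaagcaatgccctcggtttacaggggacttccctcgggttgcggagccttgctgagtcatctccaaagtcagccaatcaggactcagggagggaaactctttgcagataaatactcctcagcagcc
For comparison, the same stretch before Ccl12, the gene with the smallest p, held no match.
Ccl12, chr11:82101595-82101844, plus strand: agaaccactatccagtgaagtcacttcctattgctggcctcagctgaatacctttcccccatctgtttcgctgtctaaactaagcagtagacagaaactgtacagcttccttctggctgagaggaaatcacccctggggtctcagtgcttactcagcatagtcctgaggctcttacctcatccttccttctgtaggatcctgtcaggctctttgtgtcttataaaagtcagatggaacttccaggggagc

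RefSeq windows of 250 bases before to 50 bases after the start were found for 22 of the 30 interferon targets. The ISRE core was present in any window of 18 of the 22, and in 8 of the 10 found among the 14 targets without overlap, against 12.1% of 27025 genes with a window and 9.93% of the 9360 genes that were both tested and found. The list holds known interferon targets, so a share above that of all genes was built in by its choice. Targets without overlap (80%) did not stand apart from the whole list (81.8%). The letters GGNNTTTCC of the kappaB site, searched on both strands, were in 4 of the 22 and in 6.62% of all genes with a window. The windows of Ccl12, Tnfsf15, Itgb8 and 1 further gene that passed held 0 matches to these or to the AP-1 (TGANTCA), CRE (TGACGTCA), NRF2 element (TGACNNNGC), E-box (CACGTG) and PU.1 (GAGGAAGT) letters. A match is a description of the letters and not of binding.

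The members differed in size and in evenness. Oasl2, an oligoadenylate synthetase-like protein, had 23.1, 19.4 and 23.1 CPM in WT and 55.8, 48.6 and 35.1 CPM in Irg1-/- cultures (log2 fold change 1.08 ± 0.26 (SE), edgeR adjusted p = 0.191). Rsad2 had 62.7, 64.2 and 64.2 CPM in WT and 121, 152 and 130 CPM in Irg1-/- cultures (1.08 ± 0.34 (SE), edgeR adjusted p = 0.463). The WT cultures were nearly equal, and the Irg1-/- cultures lay well above them, at a fitted fold of 2.11. Isg20 had 2.58, 3.06 and 1.41 CPM in WT and 14.2, 5.47 and 3.69 CPM in Irg1-/- cultures (1.72 ± 0.41 (SE), edgeR adjusted p = 0.191). Mx2, a dynamin-like antiviral GTPase, had 0.837, 0.668 and 2.00 CPM in WT and 4.21, 5.47 and 2.89 CPM in Irg1-/- cultures (1.72 ± 0.43 (SE), edgeR adjusted p = 0.239). These groups also lay apart, but with a wider spread. Cxcl10 had 4.96, 2.86 and 9.56 CPM in WT and 13.4, 12.4 and 10.7 CPM in Irg1-/- cultures (1.04 ± 0.37 (SE), edgeR adjusted p = 0.581), and it overlaps Art3 on the opposite strand.

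Oas2, Rtp4, Isg15, Trim30a, Ifit1, Oas1a, Ifi203 and Cmpk2 were further targets without overlap, with log2 fold changes from 0.39 (Ifi203) to 1.20 (Oas2). The sensors Ddx58 and Ifih1 and the tetherin gene Bst2 overlapped between genotypes, with log2 fold changes of −0.09, 0.26 and −0.09. Rsad2 was at 130 CPM in Irg1-/- culture 3, the one with 14766807 counts, and at 121 and 152 CPM in the cultures with 4707752 and 3927378 counts. Pool 4 also held the third WT culture of each LPS treatment, in which Rsad2 was at 9752 to 58312 CPM. The part of library depth and of the LPS libraries of the pool in these levels was not tested.

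**Figure D3:**
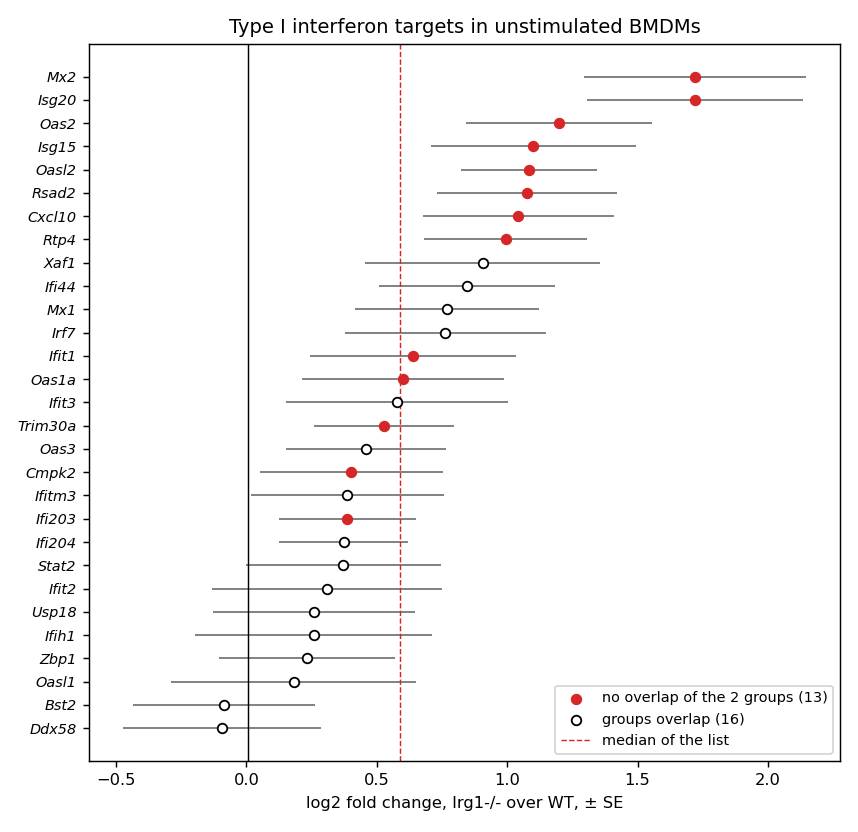
Log2 fold change of Irg1-/- over WT with its SE (horizontal axis) for 29 of the 30 type I interferon targets in unstimulated BMDMs. Red points are the 13 genes drawn whose groups did not overlap, open points the 16 that did, the solid line is the median of all genes tested (0.01) and the dashed line the median of the list (0.59).

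Inflammatory cytokines and chemokines formed another list. Of 25 tested, 0 passed in edgeR, 6 were higher and 0 lower at an unadjusted p under 0.05 (2.7% and 2.5% of all genes tested), 5 were higher without overlap and 0 lower (4.34% and 5.09% of all genes), and the median log2 fold change was 0.37; DESeq2 called Ccl7. Il1b, the precursor of IL-1beta, had 4.38, 5.06 and 5.66 CPM in WT and 12.8, 6.97 and 10.3 CPM in Irg1-/- cultures (1.00 ± 0.32 (SE), edgeR adjusted p = 0.481). Ccl2, the main CCR2 ligand, had 2.32, 6.01 and 2.58 CPM in WT and 4.36, 17.0 and 8.46 CPM in Irg1-/- cultures, which overlapped. Cxcl2, a neutrophil chemokine, had 19.9, 33.5 and 24.1 CPM in WT and 35.2, 34.9 and 54.9 CPM in Irg1-/- cultures. Tnf had a log2 fold change of 0.37, Il6 of −1.71 and Il10 of −1.0, each with overlapping groups. Ccl2, Ccl7 and Ccl12 lie in 1 chemokine cluster on chromosome 11.

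Antigen presentation genes were examined next. Of 15 MHC class II and co-stimulation genes tested, 0 passed in edgeR or DESeq2, 5 were higher and 0 lower at an unadjusted p under 0.05 (2.7% and 2.5% of all genes), and 4 were higher without overlap (4.34% of all genes), with a median log2 fold change of 0.56. H2-Eb1, an MHC class II beta chain, had 5.35, 6.97 and 6.44 CPM in WT and 15.3, 17.7 and 14 CPM in Irg1-/- cultures (1.32 ± 0.43 (SE), edgeR adjusted p = 0.481). H2-Aa, an MHC class II alpha chain, had 14.8, 14.5 and 13.6 CPM in WT and 34.3, 39.8 and 18.0 CPM in Irg1-/- cultures. Cd86, the co-stimulatory ligand, had 5.35, 4.49 and 2.39 CPM in WT and 9.19, 7.92 and 7.92 CPM in Irg1-/- cultures. All 3 were higher in each Irg1-/- culture than in any WT culture, whereas Cd80, the other CD28 ligand, and Ciita, the class II transactivator, had log2 fold changes of −0.77 and 0.56 with overlapping groups. Of the 16 MHC class I genes, Tap1, a peptide transporter, had 6.51, 13.7 and 11.8 CPM in WT and 22.6, 27.7 and 15 CPM in Irg1-/- cultures, and the median of that list was 0.03.

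Few genes of itaconate handling and the TCA cycle lay apart. Of 30 tested, 0 passed in either tool, 1 was higher and 0 lower at an unadjusted p under 0.05 (2.7% and 2.5% of all genes), 1 was higher and 2 lower without overlap (4.34% and 5.09% of all genes), and the median log2 fold change was 0.13. Sdha, Sdhb, Sdhc and Sdhd, the subunits of succinate dehydrogenase, had values of 0.01, −0.23, 0.05 and −0.46, all with overlapping groups. Idh2, mitochondrial isocitrate dehydrogenase, was higher without overlap (16.9 to 22 CPM in WT and 22.4 to 37.1 CPM in Irg1-/-), and Dld and Ogdh, parts of the oxoglutarate dehydrogenase complex, were lower without overlap, at log2 fold changes of 0.50, −0.47 and −0.20. Of 34 nuclear-encoded subunits of oxidative phosphorylation, 1 was higher and 1 lower without overlap, beside the same shares of all genes, with a median of 0.13.

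NRF2 targets had a median log2 fold change of −0.30. Of 25 tested, 4 had a value above 0 and 21 below, beside 50.8% of all genes above 0, 2 were lower without overlap, beside 5.09% of all genes, and 0 passed in either tool. Txnrd1, thioredoxin reductase, had 275, 227 and 227 CPM in WT and 147, 133 and 161 CPM in Irg1-/- cultures (−0.72 ± 0.32 (SE), edgeR adjusted p = 0.863), with the Irg1-/- cultures all below the WT cultures. Tkt, the pentose phosphate enzyme transketolase, ranged from 44.9 to 64.3 CPM in WT and from 31.1 to 36.0 CPM in Irg1-/-. Hmox1 and Nqo1, further targets of NRF2, had log2 fold changes of 0.27 and 0.00.

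Among 26 genes of glycolysis and of the HIF response, 4 were lower without overlap and 0 higher (5.09% and 4.34% of all genes), with a median of −0.05 and 0 past the threshold in either tool. Hk1, a hexokinase, had 42.8, 32.7 and 46.4 CPM in WT and 12.9, 14.5 and 28.1 CPM in Irg1-/- cultures (−1.12 ± 0.44 (SE), edgeR adjusted p = 0.705). Bnip3, a mitophagy receptor, had 17.5, 18.5 and 18.1 CPM in WT and 8.57, 14.1 and 9.90 CPM in Irg1-/- cultures. Ndrg1 and Aldoa, which is the glycolytic aldolase, were the other two without overlap. Of 29 genes of cholesterol synthesis and efflux, 9 had a log2 fold change above 0 and 20 below (50.8% of all genes above 0), with a median of −0.25.

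Lipid mediator genes went in both directions. Pla2g7, the PAF acetylhydrolase, had 304, 256 and 260 CPM in WT and 114, 151 and 155 CPM in Irg1-/- cultures (−0.97 ± 0.31 (SE), edgeR adjusted p = 0.463). Ptgs1, the constitutive cyclooxygenase, had 42.5, 39.5 and 25.1 CPM in WT and 98.3, 59.6 and 58.0 CPM in Irg1-/- cultures (1.01 ± 0.40 (SE), edgeR adjusted p = 0.745). Both were without overlap, and the median of the 16 genes of this list was 0.06.

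The inflammasome list, which includes the genes through which IL-1beta is released, had 17 of 19 log2 fold changes above 0 (50.8% of all genes) and a median of 0.21. The 3 higher without overlap (4.34% of all genes) were Il1b, Pycard, the ASC adaptor, at 33.4 to 41.7 CPM in WT and 51.1 to 55.6 CPM in Irg1-/-, and P2rx7, the ATP-gated channel, at 27.4 to 32.3 and 35.4 to 44.9 CPM. 0 of the 19 passed in either tool, and 2 were higher at an unadjusted p under 0.05 (2.7% of all genes). Cell cycle genes had a median of 0.32 over 40 tested with 0 at an unadjusted p under 0.05, and lysosomal genes, macrophage identity genes and colony-stimulating factor receptors had medians of 0.00, 0.08 and 0.02.

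**Figure D4:**
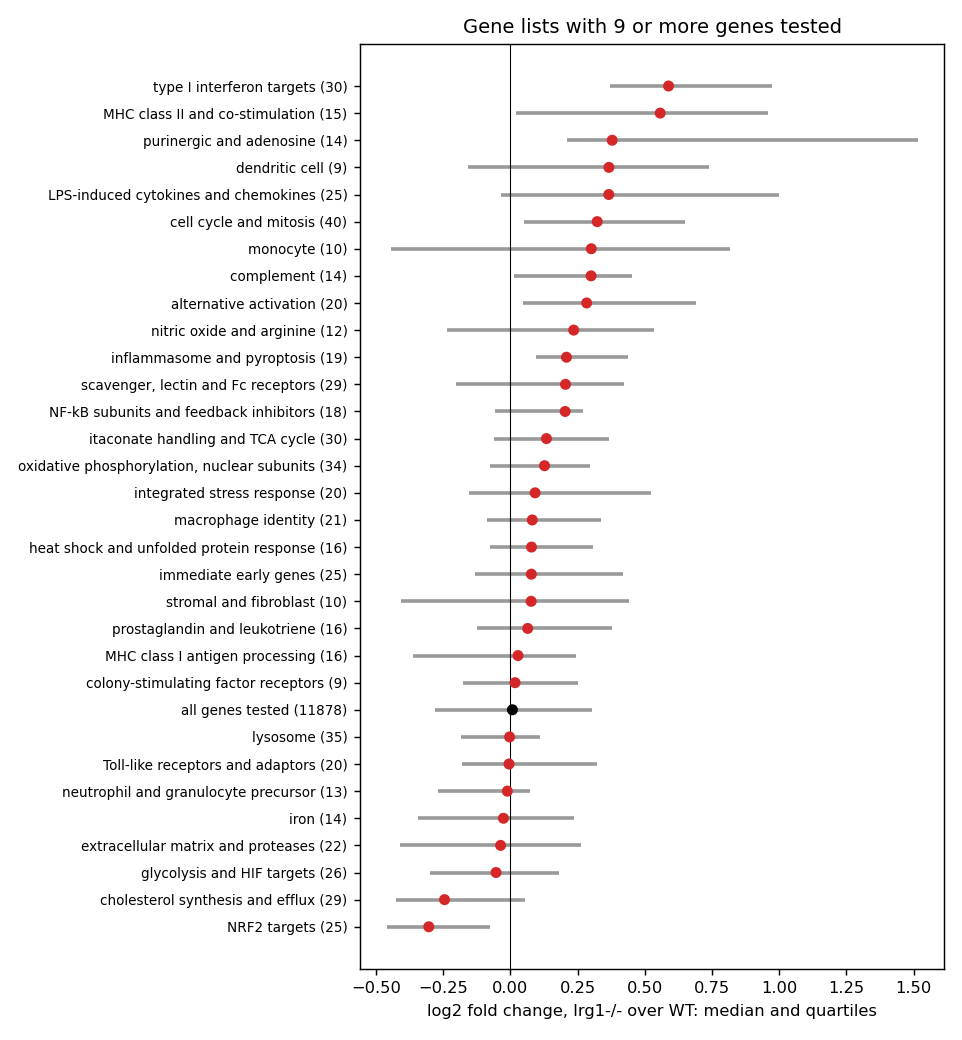
Median (point) and quartiles (bar) of the log2 fold change of Irg1-/- over WT in unstimulated BMDMs for each gene list with 9 or more genes tested, with the number tested in parentheses. Interferon targets (0.59) and MHC class II genes (0.56) stand at the top, NRF2 targets (−0.30) at the bottom, and all genes tested (black) at 0.01.

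Markers of other cell types were summed in each library. The macrophage identity list was expressed in all 6 libraries, at 12637 to 13263 CPM in WT and 12059 to 15780 CPM in Irg1-/- cultures. Neutrophil and granulocyte precursor genes summed to 698 to 892 CPM in WT and 593 to 855 CPM in Irg1-/-. Lymphocyte genes stayed at 4.15 CPM or less and mast cell genes at 1.53 CPM or less, with Cd3e, Cd8a, Nkg7, Cpa3 and Fcer1a at 0. The sum of 10 monocyte genes was 113 to 145 CPM in WT and 157 to 254 CPM in Irg1-/-, without overlap (exact permutation p = 0.1, the smallest that 3 against 3 allows). Of the 10 genes 5 had a log2 fold change above 0 and 5 below, and without F13a1 and Ccr2 the other 8 overlapped, at 52.3 to 64.5 CPM in WT and 39.3 to 75.1 CPM in Irg1-/-. Ccr2, the receptor of Ccl2, Ccl7 and Ccl12, had 35.4, 45.1 and 19.4 CPM in WT and 76.8, 46.6 and 90.9 CPM in Irg1-/- cultures. Cd177, on this list although known as a neutrophil marker, had 22, 9 and 18 counts in WT and 0 in each Irg1-/- library. In bulk RNA, more cells of a type cannot be told apart from more RNA per cell.

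The sum of platelet and erythroid genes lay apart through Pf4 alone. With Pf4 the sum was 117 to 154 CPM in WT and 372 to 499 CPM in Irg1-/-, and without it 1.16 to 6.0 CPM and 2.81 to 5.47 CPM, with Alas2, Klf1 and Hbb-bt at 0. Osteoclast genes summed to 491, 534 and 1218 CPM in WT and 403, 348 and 461 CPM in Irg1-/- (exact permutation p = 0.1). Most of it was Atp6v0d2, a subunit of the proton pump, with 413, 443 and 1144 CPM in WT and 301, 288 and 390 CPM in Irg1-/-. WT culture 3 held the high value, and Oscar and Ocstamp were at 0. Dendritic cell markers overlapped, with Xcr1, Itgae and Cd209a at 0, although Itgax, which encodes CD11c, had 26.5, 29.1 and 28.6 CPM in WT and 19.3, 12.6 and 11.1 CPM in Irg1-/-. The part of these markers in the gene differences above was not tested.

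The same genes were then read after LPS, in libraries of the other treatments, which share with the unstimulated comparison the filter on low counts and the estimate of the spread. The genotypes differed past the threshold there for 1 gene in LPS 3h (0.00842%), 71 in LPS 24h (0.598%) and 14 in LPS 24h->LPS 3h (0.118%). Of the 10 leading genes that were higher in unstimulated Irg1-/- BMDMs, 1 (F13a1) had a log2 fold change above 0 in all 3 LPS treatments, and of the 10 leading genes that were lower, 3 (Mmp12, Malt1 and F10) had one below 0 in all 3. The share of all genes with the same sign in all 3 treatments was not computed. F13a1 had log2 fold changes of 1.35 in LPS 3h, 2.32 in LPS 24h and 1.99 in LPS 24h->LPS 3h, and passed in both of the longer treatments (edgeR adjusted p = 0.000109 and 0.00113). Its mean was 28.4 CPM in WT and 142 CPM in Irg1-/- BMDMs in LPS 24h. Mmp12 had values of −0.64, −1.27 and −0.54 and passed in LPS 24h (edgeR adjusted p = 0.0268). Of the 321 genes with an unadjusted p under 0.05 and Irg1-/- higher at baseline, 57% were above 0 in LPS 3h, 43.9% in LPS 24h and 46.1% in LPS 24h->LPS 3h, beside 47.3%, 49.0% and 47.4% of all genes tested. For the 297 genes with Irg1-/- lower at baseline, the shares above 0 were 47.5%, 47.1% and 43.8% in the same order.

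The interferon targets had a median above 0 before LPS and below 0 after 24 h of it. Their median log2 fold change was 0.59 unstimulated, 0.07 in LPS 3h, −0.38 in LPS 24h and −0.60 in LPS 24h->LPS 3h. Rsad2 had a mean of 63.7 CPM in WT and 134 CPM in Irg1-/- BMDMs unstimulated, 51083 and 48999 CPM in LPS 3h, 6889 and 2005 CPM in LPS 24h, and 7581 and 2353 CPM in LPS 24h->LPS 3h. Cxcl10 went from 5.79 and 12.2 CPM unstimulated to 296 and 51.0 CPM in LPS 24h. In both genes Irg1-/- cultures were the higher ones before LPS and the lower ones after 24 h of it.

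The difference between the unstimulated genotype effect and the mean genotype effect over the 3 LPS treatments was tested for every gene. It passed for 23 genes (0.194% of those tested), 20 with a difference above 0 (0.168%) and 3 below (0.0253%). Of the 30 interferon targets, 4 passed (Cxcl10, Rsad2, Isg20 and Oasl2), and 17 had a difference above 0 and 0 below at an unadjusted p under 0.05, beside 3.47% and 2.9% of all genes. Rsad2 had a difference of 2.25 ± 0.40 (SE, edgeR adjusted p = 0.00615) and Cxcl10 one of 2.55 ± 0.42 (SE, edgeR adjusted p = 0.00482). The 3 chemokine genes Ccl12, Ccl7 and Ccl2 passed as well, with differences of 3.85, 2.10 and 2.37 on the log2 scale. Against single treatments, 1 gene passed for LPS 3h (Acod1, 0.00842%), 25 for LPS 24h (0.21%) and 20 for LPS 24h->LPS 3h (0.168%). F13a1 and Mmp12 did not pass, with differences of −0.70 and −0.45 (edgeR adjusted p = 0.777 and 0.908). LPS libraries were spread over 4 pools, unevenly between genotypes, and with the pool as a term 11 genes passed, among them Acod1, Ccl12, Ccl7, Cxcl10, Rsad2, Itgb8, Tnfsf15, Pf4, Rhobtb1 and Kctd12. Without WT culture 1, 6 genes passed (Acod1, Ccl12, Ccl7, Cxcl10, Pilrb1 and Tnfsf15).

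**Figure D5:**
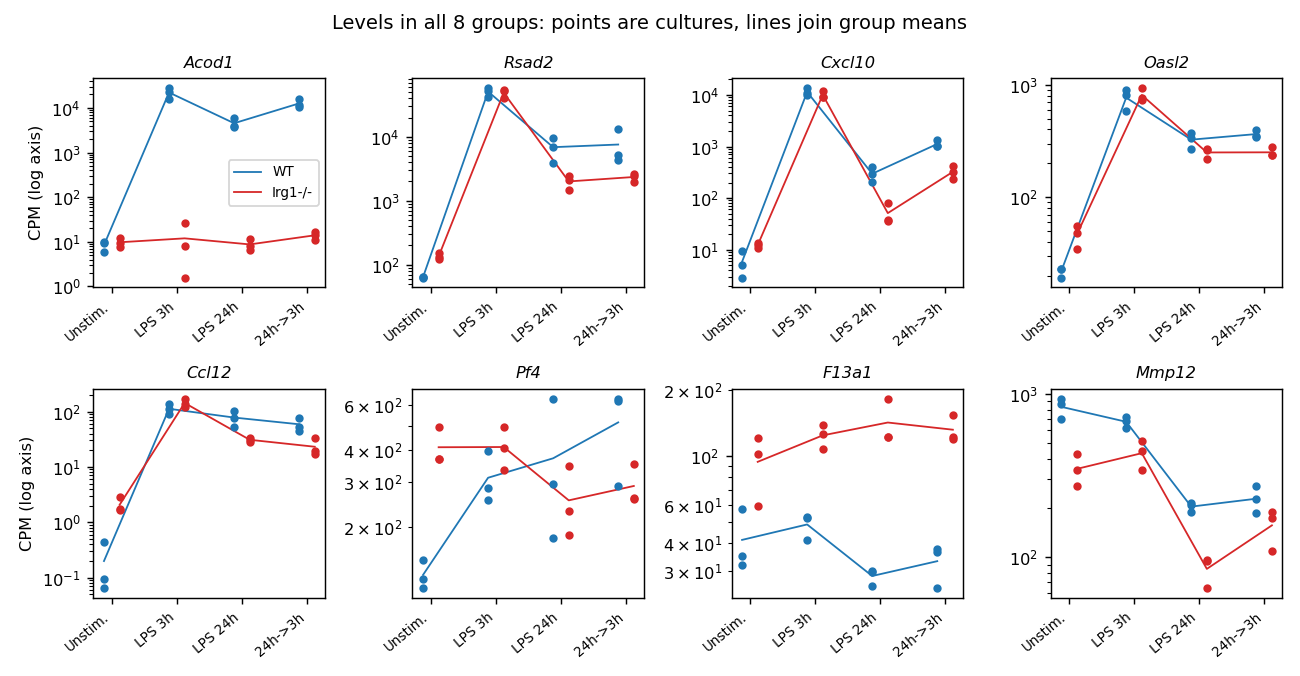
CPM on a log axis in WT (blue) and Irg1-/- (red) BMDMs over the 4 treatments for 8 genes; points are cultures (3 per group) and lines join group means. Acod1 is apart only after LPS, Rsad2, Cxcl10, Oasl2 and Ccl12 cross between the unstimulated and the 24 h groups, and F13a1 and Mmp12 keep their order in all 4.

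Genes beside the targeted locus were examined separately. Of 5 genes tested within 1 Mb of Acod1 (chr14:103046977-103056573), 0 passed in edgeR and 1 had an unadjusted p under 0.05 (5.2% of all genes). Mycbp2, an E3 ubiquitin ligase whose gene has its nearer end, the 3′ one, 56838 bases from Acod1, had 255, 175 and 242 CPM in WT and 121, 146 and 139 CPM in Irg1-/- cultures (−0.73 ± 0.31 (SE), edgeR adjusted p = 0.824), without overlap. Kctd12, 64340 bases away on the other side, had 51.1, 78.4 and 59.9 CPM in WT and 103, 85.2 and 84.5 CPM in Irg1-/- cultures (0.53 ± 0.33 (SE), edgeR adjusted p = 1.00). Mycbp2 was thus lower and Kctd12 higher without overlap, beside 5.09% and 4.34% of all genes. After LPS, Kctd12 was lower in the knockout in all 3 treatments (−1.23, −2.06 and −1.11) and the difference of differences passed (2.00 ± 0.39 (SE), edgeR adjusted p = 0.0166). Ednrb, which encodes an endothelin receptor, overlapped between genotypes.

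Genes that passed were scattered over 5 chromosomes, and 3.50% to 7.48% of the genes on each autosome and 3.66% on X had an unadjusted p under 0.05. On Y it was 3 of 5. Ddx3y had 205, 139 and 249 CPM in WT and 89.1, 105 and 131 CPM in Irg1-/- cultures (−0.87 ± 0.37 (SE), edgeR adjusted p = 0.840), and Eif2s3y, Kdm5d and Uty had log2 fold changes of −0.79, −0.61 and −0.30 with overlapping groups. Y-linked transcripts were thus present in every culture, and the sex makeup of the cultures and its part in other genes was not tested. Of 5 C57BL/6 subline genes tested, 0 passed in edgeR, and 0 were higher and 2 lower without overlap (4.34% and 5.09% of all genes). Wdfy1, lower without overlap, had 58.2, 77.8 and 68.3 CPM in WT and 52.5, 39.6 and 55.5 CPM in Irg1-/- cultures. Nnt, the transhydrogenase gene that is deleted in part in C57BL/6J but not in C57BL/6N, overlapped between the genotypes, at 21.6, 23.7 and 22.8 CPM in WT and 29.1, 20.0 and 21.9 CPM in Irg1-/- cultures. The part of subline in these levels was not tested.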

How the data were processed

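BMDMs of 2 genotypes and 4 treatments were profiled in 24 libraries, 3 independent cultures per group, of which the 6 unstimulated ones carry the comparison. Per the labels, cDNA made from barcoded oligo-dT primers was pooled and amplified, and the submitters' notes name STAR (version not given in the sources used here) and mm10. The authors deposited whole-number counts per gene. The counter, annotation and strand setting are not given in the sources used here. The submitted table has 22165 genes, of which 21822 were named through GENCODE M21 (GRCm38), and 5 summary lines. These lines held 26.7% to 32.1% of an unstimulated column as reads on no feature, 0.329% to 0.402% as ambiguous and 18.5% to 20.5% as not uniquely aligned, and were left out. Counts on genes ranged from 3927378 to 15642267 in the 6 libraries. PCR reads without molecular identifiers are not independent molecules.

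Counts were scaled by TMM, kept by filterByExpr and tested with edgeR 4.0.16 (R 4.3.3; glmQLFit and glmQLFTest) in 1 model of 8 group means over all 24 libraries, with Benjamini-Hochberg adjustment over 11878 genes and a threshold of 0.05. The contrasts were Irg1-/- minus WT in each treatment and the difference between them. Standard errors are the log2 fold change over the square root of F. Every adjusted p is from this test unless DESeq2 (1.42.0) is named. Sums over markers and over the interferon targets were compared by two-sided exact permutation tests of 3 against 3, which cannot go below 0.1. Over the 9 marker lists the lowest adjusted p of these tests was 0.3. Where no library of a group exceeded the floor of 3 counts, the fold is printed as a bound. The members, the 37 gene lists and the tests were chosen with earlier results of these data known. Named genes were Acod1, genes past the threshold, the 10 with the smallest p per direction among those whose groups did not overlap and whose higher group averaged 10 counts or more, up to 4 further members per list by size of change, sex and subline genes, genes within 1 Mb of Acod1, and the 5 smallest p of the difference of differences. Further list members, named because their groups did not overlap or for their role, were chosen after their values were seen. The alternatives were DESeq2's Wald test and size factors, TMM without the 20 most abundant genes, the pool as a term, a mean count of 10 or no filter, the 6 libraries alone, a replicate block, thinning, and leaving out each library. Same-numbered WT and Irg1-/- cultures were not treated as pairs. Some list members are not reported here by name. Promoter windows are from RefSeq (GRCm38.p6).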

Additional observations from a re-analysis of the deposited data

Results flagged for a closer look

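The genotype effect before LPS differed from the mean genotype effect over the 3 LPS treatments, by edgeR's test of the difference, for the 23 genes below. Each value is the log2 fold change of Irg1-/- over WT unstimulated minus its mean after LPS.

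Acod1 had the largest difference, 10.1, and the gene was induced after LPS in WT and not in Irg1-/- BMDMs. Among chemokine genes, Ccl12 had 3.85, Cxcl11 3.75, Cxcl10 2.55, Ccl2 2.37, Ccl7 2.10 and Pf4 1.99. Cxcl11 rested on 1, 0 and 6 counts in unstimulated WT and 0, 5 and 23 in unstimulated Irg1-/- libraries, with overlapping groups. It did not pass with the pool as a term or after thinning. Ccl2 overlaps Gm17268 on the opposite strand. Among interferon-responsive genes, Rsad2 had 2.25, Isg20 2.17, Il18bp (which encodes the binding protein of IL-18) 1.99, overlapping Numa1 on the opposite strand, Trim30c 1.82 and Oasl2 1.36. Each of these chemokine and interferon-responsive genes had a log2 fold change above 0 unstimulated and below 0 in both LPS 24h and LPS 24h->LPS 3h. Cxcl10 and Cxcl11 overlap Art3 on the opposite strand, and the nearby Sdad1 had −1.82, with 42.6, 35.5 and 37.2 CPM in WT and 19.3, 15.8 and 20.0 CPM in Irg1-/- cultures.

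Tnfsf15 had 2.52, Rhobtb1 2.09, Dusp5 2.01 and Kctd12 2.00. The low-count genes Pnp2 (6.23), H2-T10 (5.64; it overlaps Gm7030 on the same strand), Bend7 (5.42), Itgb8 (−3.68) and Pilrb1 (−6.74) passed on few reads in unstimulated cells, and their sizes depend on the prior count. Cldn12 had 6.68, and 0.26 without Irg1-/- culture 3.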

How the results depend on the processing

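The number of genes that passed between the unstimulated genotypes (5) became 32 with DESeq2's Wald test, 39 without a filter on low counts, 0 in the 6 unstimulated libraries alone (457 at an unadjusted p under 0.05 by edgeR) and 0 after thinning to the smallest library (556), and ranged from 0 to 5 with 1 library left out. Same-numbered WT and Irg1-/- cultures did not deviate together (correlations of −0.03, −0.02 and −0.07 across genes, with no culture matching its own number best). These values cannot show whether same-numbered cultures were prepared together. With the replicate block 3 genes passed, and with the replicate block in the 6 libraries 1 did, where 7 interferon targets had an unadjusted p under 0.05 and were higher (11 in the fit over all groups, a count added after the data were seen). The difference of differences passed for 51 genes with DESeq2's Wald test, 50 without a filter, 14 after thinning and 11 with the pool as a term, and for 6 to 16 with 1 library left out. Members of any list that passed (0) became 7 with DESeq2's Wald test, 7 without a filter and 1 (Pf4) with the pool as a term, and 0 to 1 with 1 library left out. The number of interferon targets that were higher at an unadjusted p under 0.05 (11) ranged from 8 to 11 with 1 library left out, and their median of 0.59 was 0.66 after thinning and ranged from 0.53 to 0.70 with 1 library left out.

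Of 955 log2 fold changes of 60 named genes under the alternatives, 2 had the other sign, in 2 genes near 0: Ednrb (−0.059) and Nnt (−0.11), both without Irg1-/- culture 1. Most of the 60 genes had groups without overlap, where leaving out 1 library can hardly turn the sign. A kept sign therefore says little about these genes. By the threshold, 40 of the values, in the 5 genes that had passed, no longer passed, and 25, in 15 other genes, newly passed. With 1 library left out, Ednrb ranged up to 0.49 and Nnt up to 0.16. Depth limits the low genes most, since Ccl12, Tnfsf15, Itgb8 and Pnp2 each rested on at most 40 counts in any unstimulated library.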

Other observations

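Several members of lists not described above had groups without overlap, although they did not pass the test. Iron genes had 1 higher and 1 lower of 14 tested, and scavenger, lectin and Fc receptors 2 and 2 of 29. Immediate early genes had 2 and 1 of 25, and nitric oxide and arginine genes 1 and 0 of 12. Over all genes tested, 4.34% were higher and 5.09% lower without overlap. Genes given here without overlap are higher ones, and the lower ones are not named. Cp, which encodes the ferroxidase ceruloplasmin, had 4.25, 9.74 and 6.39 CPM in WT and 15.6, 11.1 and 12.2 CPM in unstimulated Irg1-/- cultures (log2 fold change 0.94 ± 0.31 (SE), edgeR adjusted p = 0.481), and it overlaps Hps3 on the opposite strand. Clec4e, the receptor Mincle, had 5.93, 7.35 and 5.17 CPM in WT and 9.66, 15.3 and 8.78 CPM in Irg1-/- cultures. Myc had 3.35, 2.96 and 3.12 CPM in WT and 7.32, 9.99 and 5.51 CPM in Irg1-/- cultures (1.26 ± 0.57 (SE), edgeR adjusted p = 0.863). Slc7a1, a transporter of arginine, had 5.09, 5.25 and 8.10 CPM in WT and 10.3, 10.4 and 12.8 CPM in Irg1-/- cultures. None of the 4 passed the threshold in edgeR or DESeq2. Arg1, which encodes arginase, had 0.837, 0.286 and 1.46 CPM in WT and 5.30, 2.07 and 1.39 CPM in Irg1-/- cultures, which overlapped.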
